A study of Mus musculus with 2 samples.

Results

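The two-cell-like cells described here were the 160 cells, of 16841 kept cells, in which Zscan4c, Zscan4d, Zscan4f, Tcstv1 and Eif1ad10 together gave at least 3 UMIs (unique molecular identifiers, each standing for 1 captured RNA molecule). They made up 0.950% of the kept cells (exact binomial 95% interval 0.809 to 1.11%). Kept cells were called cells with at least 1000 genes detected and at most 10% of UMIs from mitochondrial genes. The cells were chosen by the measured counts of these 5 rule genes, so the counts of those genes are given as a description. They were set beside 16429 reference cells, the kept cells with no UMI of any rule gene. The remaining 252 kept cells had 1 or 2 such UMIs and lay in neither group.

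Mouse embryos start transcription from their own genome in a main wave at the two-cell stage, when the Zscan4, Tcstv, Eif1ad and Pramel families, the homeobox genes of the Obox family and the retroviral element MERVL are switched on for a short time. Cultures of mouse pluripotent stem cells hold a rare and transient population that expresses the same genes. Its entry is known to run through the transcription factor Dux and its activators Dppa2 and Dppa4, and to be held back by chromatin repressors. Such cells are known for losing the Oct4 protein, the product of Pou5f1, while the transcript can remain. Zscan4 proteins carry a SCAN domain and zinc fingers and are known for a role in telomere lengthening.

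The study described 2 mouse samples of the line Delmix: untreated epiblast stem cells, a primed pluripotent cell type, and embryoid bodies, aggregates in which such cells differentiate, at day 2. RNA was counted by droplet-based 3' single-cell sequencing. The counts form 1 pooled matrix, and the 2 tag names in it, CMO311 and CMO312, match no sample label, so no cell could be placed in either sample. With 1 pooled sample there are no replicates: no test was made, and every interval below is a 95% interval that covers counting error only.

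The 160 cells held 1294654 UMIs, 6386.5 per cell at the median (6458 in the reference cells). The median number of genes detected per cell was 2329.5, beside 2681 in the reference cells. At a common depth of 2000 UMIs, to which 159 and 16140 cells could be thinned, the medians were 1094 and 1188 genes per cell. Levels are given as CPM, the UMIs of a gene per 1000000 UMIs summed over all cells of a group. Ratios are of CPM plus a pseudocount of 1, and a gene is called higher or lower where that ratio was at least 2-fold and the gene reached 20 CPM in the group where it was higher. By this rule, and leaving out the rule genes, 668 of 7361 genes with 20 CPM in either group were higher (9.07%) and 356 were lower (4.84%). The median log2 ratio over all 7361 genes was -0.22. Of the 668 higher genes, 487 had less than 20 CPM in the reference cells, and those genes could enter the comparison only because they were high in the two-cell-like cells.

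Eif1ad10, one of many mouse-specific copies related to the translation initiation factor eIF1A, was detected in 154 of the 160 cells, at a median of 10 and a highest value of 220 UMIs per cell. Zscan4d was detected in 123 cells, at a median of 4 and a highest value of 189 UMIs. Zscan4c was found in 82 cells and reached 21 UMIs, and Zscan4f was found in 46 cells and reached 9. Tcstv1, of the two-cell-stage variable group, was found in 55 cells, and 30.9% of its 223 UMIs came from a single cell that held 69. The summed count of the 5 genes ran from 3 to 271 UMIs per cell, with quartiles of 7, 16.5 and 30.25, so that the cells form a long gradient. The 10 cells with the most held 33.5% of the 4373 UMIs. Just inside the threshold, 11 cells had exactly 3 UMIs, and just outside it 29 cells had 2 and 223 had 1. The two-cell-like cells held 94.0% of all rule-gene UMIs in kept cells.

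The combinations of rule genes are a description, since their sum chose the cells. A UMI of Zscan4c, Zscan4d or Zscan4f and one of Eif1ad10 occurred together in 130 cells (81.3%, 74.3 to 87.0). Eif1ad10 without any of these Zscan4 genes occurred in 24 cells (15%, 9.85 to 21.5), and Zscan4 without Eif1ad10 in 6 cells (3.75%, 1.39 to 7.98). All 5 rule genes were seen in 21 cells. Of the 252 cells with 1 or 2 rule UMIs, 147 had an Eif1ad10 UMI and 98 a UMI of these Zscan4 genes. In the 24 cells without a Zscan4 rule gene, the Eif1ad copies outside the rule summed to 2989 CPM and Zscan4 genes outside the rule to 196 CPM. These sums were 7043 and 2348 CPM in the 130 cells with both. The 24 cells all held Eif1ad10, which can share reads with its copies, so their Eif1ad sum is no separate support. A UMI of a Zscan4 gene outside the rule was present in 13 of them. The median rule-gene count of the 24 cells was 6.5 UMIs, beside 19 in the 130, at similar depths of 6554 and 6464.5 UMIs per cell.

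**Figure D1:**
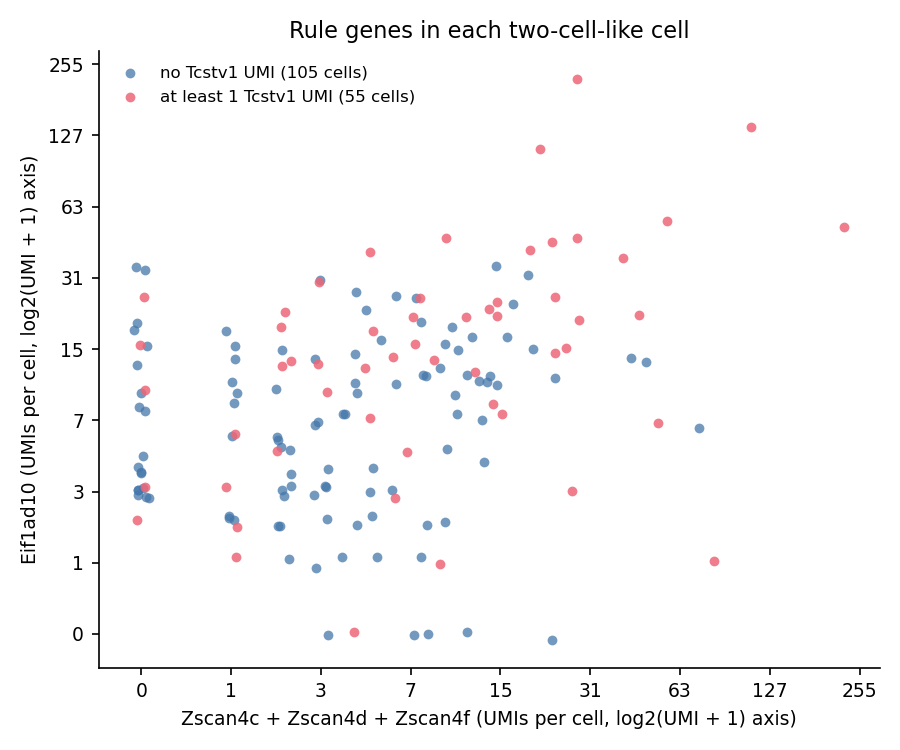
UMIs of Zscan4c, Zscan4d and Zscan4f summed (horizontal) and of Eif1ad10 (vertical) in each of the 160 two-cell-like cells, on log2(UMI + 1) axes with small random offsets so that points do not hide each other. Most cells lie away from both axes, 24 lie at 0 Zscan4 and 6 at 0 Eif1ad10, and cells with a Tcstv1 UMI (55, red) spread over the whole range.

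The rule genes belong to clusters of near-identical copies, which bears on how their reads could be counted. In RefSeq gene order (assembly GRCm38.p6), the 8 Zscan4 genes and pseudogenes with 20 CPM lay on chromosome 7 within a run of 35 genes. The 15 Eif1ad copies with 20 CPM lay on chromosome 12 within 63 genes. Tcstv1 and the genes named with it made 7 with 20 CPM, of which 6 were found in that order, on chromosome 13 within 28 genes. In GENCODE vM21 transcripts, 75.2% of the 90-base stretches in the last 500 bases of Zscan4d occurred in no other gene, and this share was 61.3% for Zscan4c, 20.9% for Zscan4f and 99.4% for Tcstv1. For Eif1ad10, Zscan4e, Zscan4b and Eif1ad6 it was 0%. The labels and headers do not name the authors' annotation. Counts of single members of the Zscan4 and Eif1ad families are therefore uncertain, and family sums are given beside them.

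The promoters of leading genes are shown because the leading genes lie in several families, and some of them carry the same short word upstream of their starts. They are the 250 bases before the annotated start, from RefSeq with build GRCm38.p6, which may not be the authors' build. RefSeq promoters were not found here for Eif1ad10, Tcstv1 and Zscan4e. In the Zscan4 sequences the capitals mark GATTNAAT on either strand, in Pramel20, Eif4a3l1, Gm4340 and Gm21761 they mark the longer GATTNAATC, which reads alike on both strands, and in Zfp352 they mark TAATCC. The windows are chr7:11005495-11005744 (plus strand) for Zscan4c, chr7:11166149-11166398 (minus strand) for Zscan4d, chr4:143567217-143567466 (plus strand) for Pramel20, chr6:136327289-136327538 (plus strand) for Eif4a3l1, chr10:104193792-104194041 (plus strand) for Gm4340, chr13:119913469-119913718 (minus strand) for Gm21761 and chr4:90218570-90218819 (plus strand) for Zfp352.
Zscan4c: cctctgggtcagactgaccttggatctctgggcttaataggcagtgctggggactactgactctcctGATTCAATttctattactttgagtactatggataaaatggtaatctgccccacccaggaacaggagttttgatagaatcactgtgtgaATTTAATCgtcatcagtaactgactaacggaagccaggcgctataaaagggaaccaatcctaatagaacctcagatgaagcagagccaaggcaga
Zscan4d: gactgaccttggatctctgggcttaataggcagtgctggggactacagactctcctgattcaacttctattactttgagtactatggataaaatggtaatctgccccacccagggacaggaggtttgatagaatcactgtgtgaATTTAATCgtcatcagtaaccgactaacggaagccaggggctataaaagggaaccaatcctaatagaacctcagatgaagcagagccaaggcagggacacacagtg
Pramel20: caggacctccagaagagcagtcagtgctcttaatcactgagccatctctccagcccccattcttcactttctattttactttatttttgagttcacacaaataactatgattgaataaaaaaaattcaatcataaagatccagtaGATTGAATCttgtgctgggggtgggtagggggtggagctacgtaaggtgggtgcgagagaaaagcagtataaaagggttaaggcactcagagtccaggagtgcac
Eif4a3l1: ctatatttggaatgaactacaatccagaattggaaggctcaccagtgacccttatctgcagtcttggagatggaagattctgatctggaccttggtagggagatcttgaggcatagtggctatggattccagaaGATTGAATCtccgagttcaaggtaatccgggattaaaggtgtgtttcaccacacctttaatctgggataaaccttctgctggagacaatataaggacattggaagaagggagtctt
Gm4340: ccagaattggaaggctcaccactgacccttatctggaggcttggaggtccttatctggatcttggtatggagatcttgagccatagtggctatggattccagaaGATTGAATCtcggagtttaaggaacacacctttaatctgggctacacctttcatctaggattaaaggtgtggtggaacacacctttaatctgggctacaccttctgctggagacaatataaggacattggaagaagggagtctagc
Gm21761: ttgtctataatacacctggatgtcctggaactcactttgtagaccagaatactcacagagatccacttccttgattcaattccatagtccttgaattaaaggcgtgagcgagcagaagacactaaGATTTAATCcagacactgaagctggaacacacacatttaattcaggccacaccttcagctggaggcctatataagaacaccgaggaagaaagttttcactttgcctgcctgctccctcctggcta
Zfp352: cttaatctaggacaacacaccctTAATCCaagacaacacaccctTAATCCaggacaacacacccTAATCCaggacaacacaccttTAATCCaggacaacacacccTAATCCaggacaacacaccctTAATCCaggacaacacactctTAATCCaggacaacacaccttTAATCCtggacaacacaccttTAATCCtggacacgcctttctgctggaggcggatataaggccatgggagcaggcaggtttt

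The Zscan4c and Zscan4d promoters are copies of each other: the last 150 bases before the start of Zscan4c differed from the best match in the Zscan4d window at 5 positions, counting substitutions, insertions and deletions, and from that of Zscan4f at 2. Pramel20 and Pramel31 differed at 10 of 150 positions, and Eif4a3l1 and Gm4340 at 38. Between the Zscan4 and Pramel promoters compared, the counts were 69 to 73. GATTNAATC was present in the 250-base windows of 11 of 103 genes that were at least 16-fold higher and had a RefSeq promoter (10.7%), in 1 of 341 genes that were 2-fold to 16-fold higher (0.293%), in 5 of 5405 genes with 20 CPM that were not higher (0.0925%) and in 70 of 27025 promoters in the table (0.259%). The 11 were Gm21761, AF067061, Pramel20, Pramel31, Pramel17, Eif4a3l1, Gm4340, Gm12724, Gm12790, Gm35974 and Esp24, with the match starting 105 to 169 bases before the gene start. The shorter GATTNAAT, which lies within the longer word, was present in 14 of the 103 (13.6%) and in 1.85% of all promoters. TAATCC, on either strand, was present in 20 of the 103 (19.4%) and in 6.38% of all promoters, and 9 times in the Zfp352 window. Also looked for were TATAAA, in 18.4% of the 103 and 13.0% of all promoters, and TGCACAC, in 7.77% and 3.49%. The words were chosen after these promoters had been read, copies within a family are not independent, and a match is a description of letters.

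Two-cell genes that the rule did not use were high in the same cells. A list of 55 such genes summed to 5384 CPM (5259 to 5512) in the two-cell-like cells and to 99.8 CPM in the reference cells. The list was drawn up with Zscan4, Tcstv and Pramel genes, Pramel17 and Pramel31 among them. Its sum and the sums of those families are therefore not separate totals. Of the 55, 24 were higher and none was lower. In both groups 30 stayed under 20 CPM, and 14 of the 55 had no UMI in the two-cell-like cells. Of the 25 with 20 CPM in either group, 24 reached it only in the two-cell-like cells. Those could not have been called lower, so the count of higher genes is not set against the 9.07% of all genes. The Eif1ad copies outside the rule summed to 6216 CPM (6081 to 6354) beside 4.69 CPM, with 14 of 15 higher. The Zscan4 genes and pseudogenes outside the rule summed to 1983 CPM (1907 to 2061) beside 1.62 CPM, with 5 of 5 higher. These 14 and 5 genes reached 20 CPM only in the two-cell-like cells, so the minimum level fixed their direction. The reference cells were chosen for having no rule-gene UMI, which can also lower the counts of near-identical copies there. Together with the rule genes, the two-cell list and the Eif1ad copies took a median of 1.27% of the UMIs of a two-cell-like cell, with a range of 0.0531 to 12.8%, and 0.0105% of the UMIs of the reference cells.

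Zscan4e held 823 CPM beside 0.73 CPM in the reference cells, a log2 ratio of 8.90. Over single cells it had a median of 3 UMIs, a highest value of 126, and none in 44 of the 160 cells. Zscan4b held 212 CPM, but 46.2% of its UMIs came from 1 cell, and the pseudogene Zscan4-ps3 drew 33.1% of its 538 CPM from 1 cell. Among the Eif1ad copies, Eif1ad7, Eif1ad15 and Eif1ad8 each had log2 ratios of 9.26 to 9.27, at 1168, 1008 and 1199 CPM. Eif1ad7 was present in 138 of the 160 cells, with a median of 5 and a highest value of 91 UMIs. The parent-like gene Eif1a, a general initiation factor, was not higher, at 141 CPM beside 194.

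The Pramel family of leucine-rich repeat proteins could be compared only in part. Of 46 family members in the matrix, 10 were higher, all of them from less than 20 CPM in the reference cells. The minimum level thus fixed their direction, and their count is not set against the 9.07% of all genes. The other 36 stayed under 20 CPM in both groups, and 24 had no UMI in the two-cell-like cells. Pramel20 held 643 CPM beside 0.799 CPM and was present in 124 cells, with a median of 3 and a highest value of 27 UMIs. Pramel31 held 334 CPM, Pramel16 held 291 and Pramel50 held 219, each with less than 0.5 CPM in the reference cells. Pramel13, under 20 CPM in both groups and so not compared, had 1 UMI in the two-cell-like cells (0.772 CPM) beside 5.70 CPM in the reference cells. Of the 10 higher members, 8 lay on chromosome 4 and 2 on chromosome 5.

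Genes beside Tcstv1 formed another group, with 2096 CPM summed beside 2.16 CPM and 6 of 8 higher. These 6 reached 20 CPM only in the two-cell-like cells, so the minimum level fixed their direction. Gm21761 held 1280 CPM beside 1.11 CPM, with a median of 4 and a highest value of 97 UMIs, and had no UMI in 50 of the 160 cells. B020031M17Rik held 496 CPM in only 54 cells, AF067061 held 118 CPM in 45 cells and Tcstv3 held 71.8 CPM in 28 cells. The deubiquitinase genes Usp17la, Usp17lc, Usp17le and Usp17lb were higher at 144, 81.1, 91.1 and 29.4 CPM, each with less than 0.5 CPM in the reference cells. Of 9 Tdpoz genes, which encode proteins with a POZ domain, 8 stayed under 20 CPM in both groups and were not compared. Tdpoz8 was higher, at 124 CPM beside 0.144, and reached the minimum level only in the two-cell-like cells. Eif4a3l1, a copy of the RNA helicase gene Eif4a3, held 568 CPM, with a median of 1 and a highest value of 39 UMIs per cell. Zfp352, a zinc finger gene of the two-cell embryo, held 82.6 CPM in 34 cells and was at 0 in the other 126.

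Some well-known two-cell genes were scarce or not seen. Duxf3, a symbol used for Dux, had 6 UMIs in all, 1 in each of 6 cells, and 4 UMIs in the 16429 reference cells. Obox1 was higher at 43.3 CPM beside 0.119 CPM, Obox3 had 4 UMIs and Obox6 had 2, and Obox2 and Obox5 had none. A total of 0 UMIs among 1294654 allows up to 3 UMIs. Whether the ends of the Duxf3 and Obox transcripts also occur in other genes was not examined, so low counts of these genes are not read as absence. Tmem92, Ubtfl1, Sp110 and Arg2 were higher at 56.4, 46.3, 51.8 and 75.7 CPM. Ddit4l, whose product dampens mTOR signalling, was higher from a measurable reference level, at 360 CPM beside 54.9. Zfp936 was the 1 list gene over 20 CPM that was not higher, at 31.7 CPM beside 17.8. Reads from repeats such as MERVL were not analysed here.

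**Figure D2:**
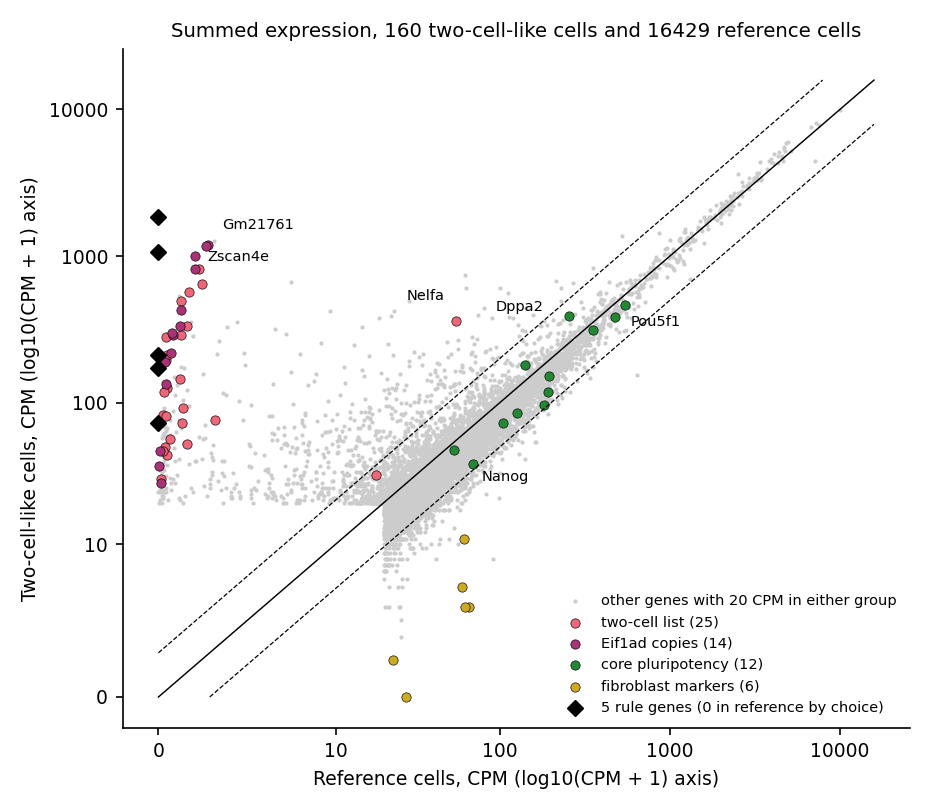
CPM of each gene with 20 CPM in either group in the 160 two-cell-like cells (vertical) against the 16429 reference cells (horizontal), on log10(CPM + 1) axes, with the line of equality and dashed lines at 2-fold. The two-cell list and the Eif1ad copies stand at the left edge near 0 CPM in the reference except for Ddit4l and Zfp936, core pluripotency genes lie between the dashed lines, and fibroblast markers lie below; the rule genes are at 0 in the reference by choice of that group.

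Thinning every cell to 2000 UMIs gave shares of cells that depth does not set. Zscan4e was then seen in 62.3% of 159 two-cell-like cells (54.2 to 69.8), in 0.161% of 16140 reference cells and in 0.393% of 509 cells with at least 10 fibroblast-marker UMIs, a cell type that should lack it and whose median depth was 7416 UMIs. Unthinned shares were 72.5% of two-cell-like and 0.487% of reference cells. Pramel20 was seen in 59.1%, 0.180% and 0.393% of the same thinned groups, and Eif1ad7 in 68.6%, 0.248% and 0.393%. Each fibroblast-marker share was 2 of 509 cells, with an interval of 0.0476 to 1.41%, which holds the reference share, so expression in the reference cells could not be told apart from background at this depth. Gm21761 was seen in 59.7%, 0.304% and 0 of 509, which allows up to 3 cells.

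The families outside the rule differed along the gradient of rule-gene UMIs. The Eif1ad copies summed to 4.69 CPM in the cells with 0 rule UMIs, 71.1 CPM with 1 and 295 CPM with 2. Inside the threshold they summed to 1074 CPM in 35 cells with 3 to 6, 3595 CPM in 45 cells with 7 to 16, 5359 CPM in 40 cells with 17 to 30 and 14045 CPM in 40 cells with 31 or more. The other Zscan4 genes went from 1.62 to 237, 659, 1368 and 5382 CPM over the reference and the same 4 bands, and the Pramel genes from 14.5 to 711, 1198, 2081 and 4373. The genes beside Tcstv1 differed more sharply at the threshold. They held 9.93 CPM in the cells with 1 rule UMI and 4.22 CPM (0.107 to 23.5) in the 29 cells with 2. The latter value is 1 UMI. In the band of 3 to 6 they held 405 CPM (335 to 485). Zfp352 had no UMI in the 252 cells with 1 or 2 rule UMIs and held 24.0 to 121 CPM in the 4 bands inside the threshold. The bands and these families come from the same cells, and the differences between bands are a description.

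**Figure D3:**
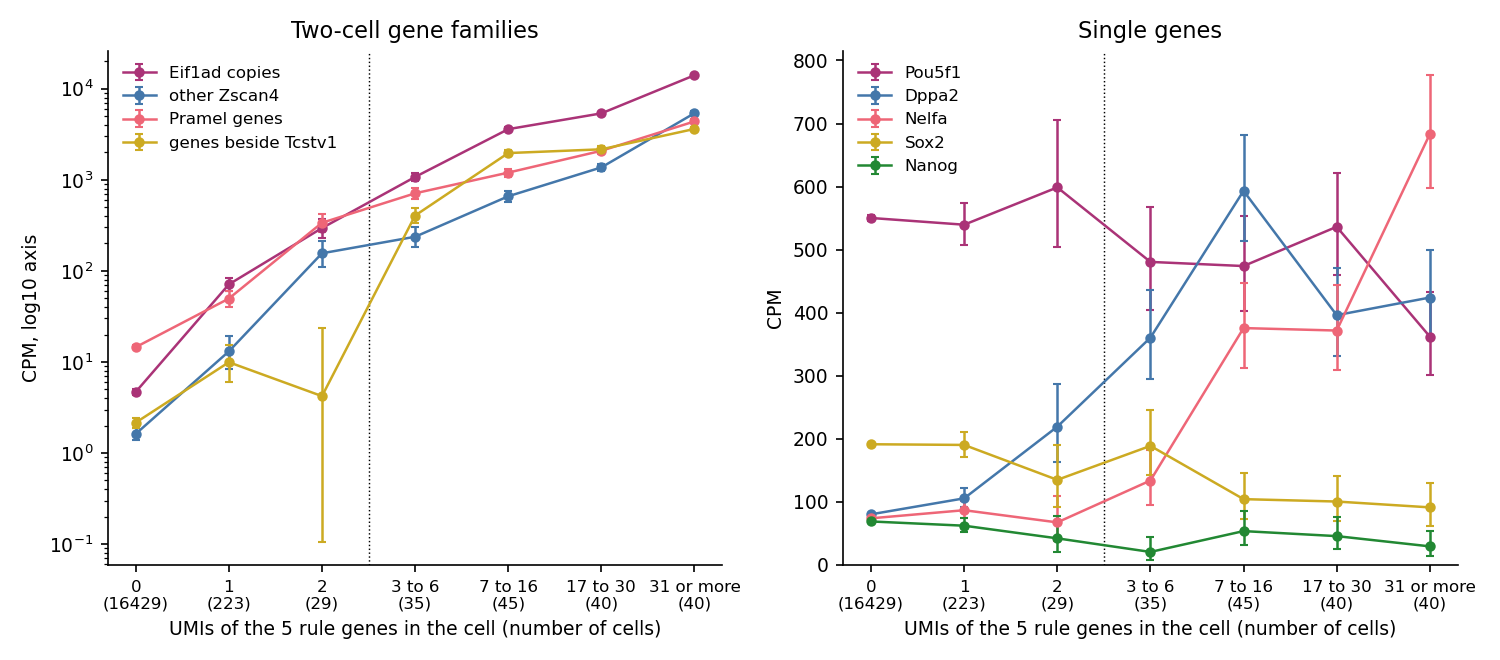
CPM by the number of rule-gene UMIs in the cell (number of cells in brackets), for 4 gene families on a log10 axis (left) and for single genes on a linear axis (right), with exact Poisson 95% intervals for counting error. The dotted line marks the threshold of 3 UMIs; the families hold at most 14.5 CPM at 0 UMIs and at least 3616 CPM at 31 or more, while Pou5f1 stays between 362 and 599 CPM.

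Across the 160 cells, shares of UMIs taken by the families are compared by Spearman coefficients, over cells that share 1 library and that differ in depth. Eif1ad10 went with the other Eif1ad copies (rho = 0.84) and the Zscan4 rule genes with the other Zscan4 genes (0.79), pairs that can also share reads. The other Zscan4 genes went with Pramel genes at 0.72 with the other Eif1ad copies at 0.55 and with the genes beside Tcstv1 at 0.34. Pramel genes went with the other Eif1ad copies at 0.56 and with the genes beside Tcstv1 at 0.44. Gm4340 had similar coefficients with several families, at 0.48 with the other Zscan4 genes, 0.52 with Pramel genes, 0.51 with the other Eif1ad copies and 0.53 with the genes beside Tcstv1. The genes beside Tcstv1 went with the other Eif1ad copies at 0.61, with Eif4a3l1 at 0.59 and with Zfp352 at 0.44. Zfp352 had a coefficient of -0.15 with the Zscan4 rule genes, and 126 of the 160 cells had no Zfp352 UMI. Core pluripotency genes had coefficients of -0.17 to -0.43 with these families. Total UMIs per cell had coefficients of -0.39 to 0.04 with the families and of 0.32 with the core pluripotency genes.

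Beyond the lists, the 20 further genes of highest ratio were mostly unnamed or little-known loci. They included Gm57152 (410 CPM, log2 ratio 8.23), Gm12724 (355 CPM, 7.84) and Gm44593 (287 CPM, 7.51). Named genes among them were Ccser1 at 670 CPM beside 5.02, Inpp4b, a phosphoinositide phosphatase gene, at 358 CPM beside 1.90, Popdc3, of the Popeye domain family, at 330 CPM beside 1.54, and Chit1, a chitinase gene, at 151 CPM beside 0.297. Popdc3 was detected in 106 of the 160 cells and Ccser1 in 108, with no single cell giving more than 4.38% of the UMIs of either. After thinning, Ccser1 was seen in 52.8% of two-cell-like, 0.737% of reference and 2.36% of fibroblast-marker cells. Provisional names such as Gm numbers made up 23.5% of the 668 higher genes and 42.9% of the 198 that were at least 16-fold higher. They made up 4.17% of the 7361 genes compared, 1.12% of the 356 lower genes and 36.5% of all 33696 genes in the matrix. Of the 668 higher genes, 487 were under 20 CPM in the reference cells, while every lower gene had 20 CPM there. These shares therefore depend on the minimum level, and the difference is not read as a trait of the higher genes.

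Of 30 known activators and repressors of the two-cell state, 2 were higher and 1 was lower, with a median log2 ratio of -0.16 over the 29 with 20 CPM. Over all genes compared, 9.07% were higher and 4.84% lower, so the counts of this list lie near the overall shares. Dppa2, an activator that binds CpG-rich promoters together with Dppa4, held 446 CPM (411 to 484) beside 80.3, a log2 ratio of 2.46. Per cell it had a median of 2 and a highest value of 41 UMIs, and 31 of the 160 cells had none. At 2000 UMIs it was seen in 54.1% of two-cell-like and 13.7% of reference cells. Dppa4 was not higher, at 180 CPM (158 to 205) beside 151. Nelfa, a subunit of the negative elongation factor, held 401 CPM (367 to 437) beside 73.9, a log2 ratio of 2.42. Dppa2 and Nelfa differed along the gradient: Dppa2 stood at 219 CPM in the cells with 2 rule UMIs and at 360, 593, 396 and 424 CPM in the bands inside the threshold. Nelfa stood at 67.5 CPM with 2 rule UMIs and at 134, 376, 372 and 683 CPM in the bands.

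Mga, which scaffolds a variant Polycomb complex, was the 1 lower gene of that list, at 55.6 CPM (43.5 to 70.0) beside 119. Its partner Pcgf6 was at 51.8 CPM beside 74.6, L3mbtl2 at 31.7 beside 37.4 and Max at 80.3 beside 89.9. The repressors Trim28 and Setdb1, which silence retroviral elements, were at 388 beside 310 and at 86.5 beside 69.8 CPM. The chromatin assembly subunits Chaf1a and Chaf1b were at 50.2 beside 40.0 and at 27.8 beside 36.2 CPM. None of these was called, and they were chosen after their values were seen.

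Of 12 core pluripotency genes none was called higher or lower, and the median log2 ratio was -0.35, beside -0.22 for all genes. Against the reference cells with few UMIs of other cell types, Utf1 was the 1 lower gene, at a log2 ratio of -1.04. Pou5f1 held 462 CPM (426 to 500) beside 550, with a median of 2.5 UMIs per two-cell-like cell and 3 per reference cell, and was detected in 133 of the 160 cells. Sox2 held 119 CPM (101 to 139) beside 191 and Nanog held 37.8 CPM (28.0 to 50.04) beside 69.0. These intervals, and that of Pou5f1, lay below the reference level. At 2000 UMIs, Pou5f1 was seen in 50.3% (42.3 to 58.3) and 62.4% of cells, and Sox2 in 13.8% (8.88 to 20.2) and 27.9%. Nanog was then seen in 8.18% (4.43 to 13.6) and 11.3%, so its interval held the reference share. Utf1 held 95.8 CPM beside 182, and Tdgf1, a Nodal co-receptor, held 390 CPM beside 258. Summed over the 12 genes, the level was 2578 CPM in the band of 3 to 6 rule UMIs and 1993 CPM in that of 31 or more.

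Most naive and primed pluripotency genes were not called. Of 20 naive pluripotency genes, 14 reached 20 CPM, with 2 higher, 1 lower and a median log2 ratio of -0.25. Dppa3, a maternal factor that protects methylation marks, held 377 CPM beside 90.1, with none in 95 of the 160 cells and 55 UMIs in the highest. Tex19.1, a germline gene, held 180 CPM beside 59.3. Esrrb was lower, at 17.8 CPM beside 41.2, while Zfp42 was at 283 beside 425 and Klf2 at 402 beside 382. Of 20 primed epiblast genes, 17 reached 20 CPM, with 1 higher, 4 lower and a median of -0.36. Over all genes compared, 9.07% were higher and 4.84% lower. Of the naive and primed counts, only that of lower primed genes lay well above its overall share. Sox3 was higher at 52.5 CPM beside 15.8. Zic5, Otx2, Fgf8 and Sfrp2 were lower, with Zic5 at 10.0 CPM beside 43.1 and Otx2 at 30.9 beside 68.1. Fgf8 was no longer 2-fold lower, at a log2 ratio of -0.45, when reference cells with UMIs of other cell types were left out.

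By the summed level of the naive list, two-cell-like cells lay toward the middle of the range. Set against quartile groups of 13568 reference cells with few UMIs of other cell types, 14, 50, 69 and 27 of the 160 cells fell from the lowest to the highest group, which is 8.75%, 31.3%, 43.1% and 16.9%. The median was 37.6 naive-list UMIs per 10000 in the two-cell-like cells and 32.1 in those reference cells. The naive list contains Dppa3 and Tex19.1, which were higher in the two-cell-like cells.

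Smc1b, the meiotic cohesin subunit, held 71.8 CPM (58.0 to 88.0) beside 6.0 and was detected in 52 cells. Rad51c held 33.2 CPM, a log2 ratio of 1.19, but 48.8% of its UMIs came from 1 cell. They were the 2 higher genes of a telomere and recombination list of 20, of which 16 reached 20 CPM with a median log2 ratio of -0.15. Over all genes compared, 9.07% were higher, so the count of this list lies near the overall share. Terf1, the telomere repeat binding factor, was at 110 CPM beside 170 and Rif1 at 568 beside 390, and neither was called. Dazl, a germ cell RNA-binding protein, held 20.1 CPM beside 2.60, just over the minimum of 20 CPM. Over the bands inside the threshold it stood at 17.2, 35.8, 24.4 and 2.94 CPM, the last from 1 UMI. Tfap2c was lower at 16.2 beside 37.0.

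DNA methylation genes were not called: none of 16 was higher or lower, and the median over the 14 with 20 CPM was -0.33. Uhrf1, which recruits Dnmt1 to replicated DNA, held 178 CPM (156 to 203) beside 168, and Dnmt1 held 116 CPM (98.1 to 136) beside 147. Of 20 p53 targets and DNA damage genes, 18 reached 20 CPM, and Pmaip1 (136 CPM beside 57.0) and Plk3 (40.2 beside 14.1) were higher and Bbc3 (29.4 beside 61.0) was lower. Of 18 integrated stress response genes, 11 reached 20 CPM and Ddit4 alone was higher, at 120 CPM beside 53.8. Over all genes compared, 9.07% were higher and 4.84% lower, so the counts of both lists lie near the overall shares. None of the G2/M phase, glycolysis, translation initiation, ribosomal protein or mitochondrially encoded genes listed was called, and of 30 S phase genes E2f8 was lower, at 12.4 CPM beside 29.2. Top2a, a mitotic marker, was at 317 CPM beside 487. Ribosomal protein genes summed to 68010 CPM beside 60641.

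**Figure D4:**
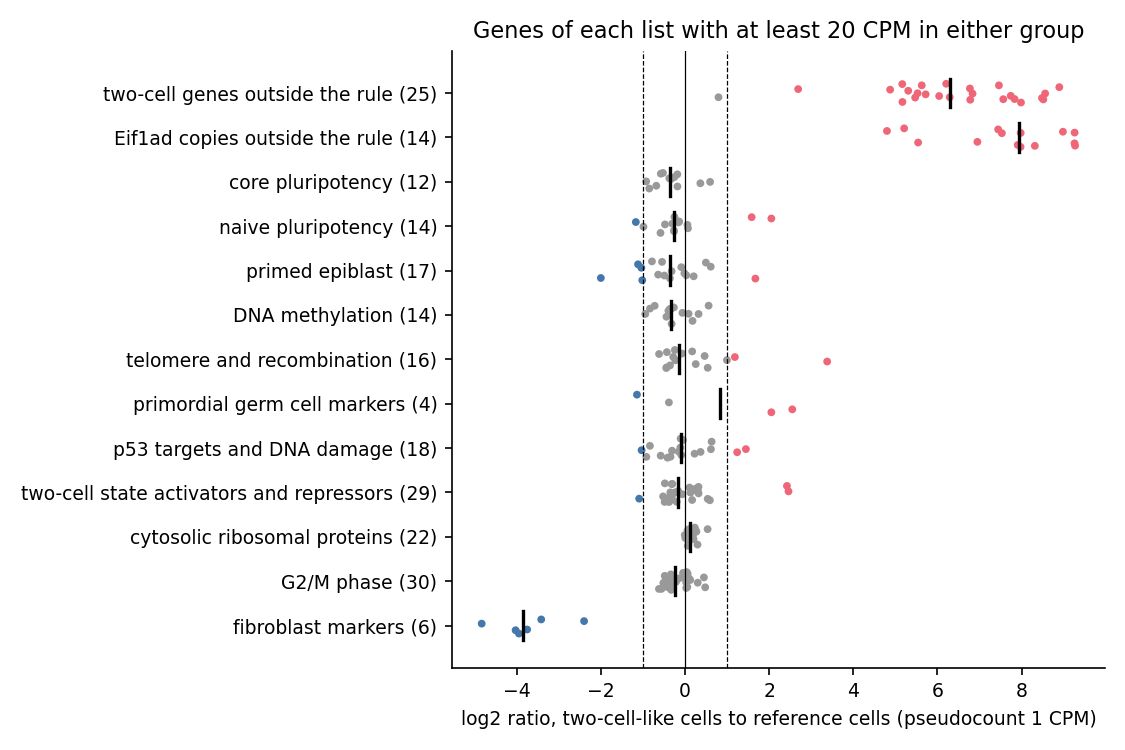
Log2 ratio of two-cell-like to reference cells for each gene with 20 CPM in either group, by list (number of genes in brackets), with the list median as a black bar, dashed lines at 2-fold, red for genes higher and blue for genes lower by at least 2-fold. The medians of the two-cell list and the Eif1ad copies are 6.29 and 7.94, that of the fibroblast markers is -3.85, and those of the other 10 lists drawn lie between -0.36 and 0.84.

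Genes lower in the two-cell-like cells included markers of other cell types. All 6 fibroblast markers that reached 20 CPM were lower, among them Col3a1 at 3.09 CPM beside 65.6 and Dcn at 0 UMIs, which allows up to 3, beside 27.5 CPM. The 13 fibroblast markers summed to 40.9 CPM (30.7 to 53.5) in the two-cell-like cells, 354 CPM in the reference cells and 15.9 CPM in the 13568 reference cells with at most 1 UMI each of the fibroblast, macrophage and mesoderm lists. Against these 13568 cells, 673 of 7284 genes were higher (9.24%) and 269 were lower (3.69%). Of the 356 lower genes, 243 were also lower there and 20 had a ratio above 1, including Col1a1, Col3a1, Mmp3, Ccl2 and Ccl7. The two-cell-like cells were not filtered in this way, and 141 of the 160 would have passed. Filtering 1 group only raises the ratios of markers on these lists, so their ratios above 1 are not read as higher levels. Ccl2 and Ccl7 are not on these lists, and the cause of their ratios was not tested. Of the 668 higher genes, 658 were also higher there. Macrophage markers summed to 55.6 CPM, beside 104 in the reference cells and 15.99 in the 13568, and 1 cell held 85.7% of the 28 Lyz2 UMIs. Mesoderm markers summed to 63.3 CPM, beside 91.6 and 30.3. No gene of the 11 trophoblast or 12 primitive endoderm markers reached 20 CPM in either group. The part of other cell types in these results was not tested.

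Other genes were lower against both groups of reference cells. Pdzrn4 held 3.09 CPM beside 20.3, and Zic5 10.0 beside 43.1, both also lower against the second group. Rai1 was lower at 3.09 CPM beside 21.6, but held 19.7 CPM in the second group, under the minimum of 20. The following were chosen after their values were seen: Atp10a at 4.63 CPM beside 26.1, Ccdc85a at 10.8 beside 49.6, the retrotransposon-derived imprinted gene Rtl1 at 5.41 CPM (log2 ratio -2.08), the hedgehog pathway factor Gli2 at 9.27 beside 34.2, and the zinc finger genes Zfp827 at 13.1 CPM (log2 ratio -1.93) and Zfp462 at 40.9 beside 141. Counts behind these values were 4 to 53 UMIs, and only 4 genes were at least 4-fold lower against both groups. Cldn7, a tight junction gene, was lower at 18.5 CPM beside 55.4.

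The share of two-cell-like cells in quartile groups of kept cells by total UMIs was 1.28%, 0.641%, 0.855% and 1.02% from the shallowest to the deepest. Scrublet called 21 of the 160 cells doublets (13.1%, 8.31 to 19.4) and 10.9% of the reference cells. Without called doublets the 139 remaining cells had 781 higher and 637 lower genes. In 72027 droplets without a cell, the rule genes gave 31.6 CPM, or 0.00684 UMIs per droplet. By tag counts, CMO312 exceeded CMO311 in 30.6% (23.6 to 38.4) of two-cell-like and 24.4% of reference cells, and the authors' deposited table left nearly every cell unassigned, 160 of 160 and 16378 of 16429.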

How the data were processed

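RNA of the pooled cells was counted per gene and barcode. The deposited matrix holds the authors' raw UMI counts of 33696 genes in 2578653 barcodes, made by Cell Ranger 8.0.1 (per the file headers), with all samples pooled. The genome build and annotation are not named in the labels or headers. The authors' deposited tag assignments per cell served only for the tag values.

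Called cells (21593) were filtered to those with 1000 or more genes and no more than 10% of UMIs from mitochondrial genes, which left 16841. The members and gene lists were chosen with earlier results of these data known. Counts were summed over each group and divided by the group total to give CPM, and ratios used a pseudocount of 1 CPM and a minimum of 20 CPM. Intervals are exact Poisson or exact binomial at 95% and cover counting error only. No model was fitted across genes. The ratio procedure was tested on simulated data. Called doublets (Scrublet in scanpy 1.11.5, expected rate 0.1) were kept. Free RNA was read from droplets with 150 to 300 UMIs. Named genes were the 5 rule genes, two-cell and Eif1ad list genes with 20 CPM, the 20 other genes of highest and 15 of lowest ratio, up to 4 of each further list by absolute log2 ratio, and Pou5f1, Sox2, Nanog, Dppa2, Dppa4, Dnmt1 and Uhrf1. Genes outside these were chosen after their values were seen. Calculations used Python 3.11.15, numpy 2.4.6, pandas 2.3.3 and scipy 1.17.1. Alternatives covered the rule, the cell filter, doublets, depth, the reference, the pseudocount, the minimum level, the total and free RNA.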

Additional observations from a re-analysis of the deposited data

Results flagged for a closer look

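Rule-gene UMIs were also present in barcodes that the cell filter removed or that were not called as cells. Of 4752 called cells outside the filter, 28 had at least 3 UMIs of the 5 rule genes (0.589%, exact binomial 95% interval 0.392 to 0.850). Outside the called cells, 4 barcodes had at least 3 such UMIs. None of these entered any value above.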

How the results depend on the processing

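Between 20 and 28 two-cell genes outside the rule were higher under every alternative run, beside 24. The number of two-cell-like cells was 96 under the stricter cell filter (2000 genes, 5% mitochondrial), and 106 after thinning every cell to 2000 UMIs. Thinning gave 1019 higher and 1712 lower genes. A minimum of 5 CPM gave 1235 higher and 931 lower genes, and a minimum of 50 CPM gave 384 and 131. The count of lower genes was 565 with at least 10 rule UMIs, 637 without called doublets, 96 with a pseudocount of 10 CPM and 860 with the mean CPM of single cells. For the settings that left fewer cells or changed the genes compared, the change follows in part from that construction; otherwise the cause was not tested. Without the 8 cells with most rule UMIs, an alternative chosen after seeing the data, 638 genes were higher and 381 lower.

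Against reference cells without other cell types, from which cells with UMIs of those types were removed while the two-cell-like cells were not filtered (141 of 160 would have passed), 11 lower genes had log2 ratios above 0: Col1a1 1.94, Ccl2 1.39, Tm4sf1 1.31, Ifit3 1.05, Col1a2 0.88, Mmp3 0.84, Bgn 0.77, Ccl8 0.71, Ccl7 0.69, Col3a1 0.50 and S100a4 0.25. No paired analysis was possible because the cells of both samples form 1 pooled matrix. Lower calls at low levels rest on few UMIs, 4 for Pdzrn4.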

Other observations

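The lower genes were long. Gene spans in GENCODE vM21 had a median of 29.7 kb over the genes with 20 CPM in either group, 96.4 kb over the 356 lower genes and 109 kb over the 243 that were lower against both references, of which 54.7% spanned at least 100 kb, beside 17.7% of all. The genes in the fifth with the longest spans had a median log2 ratio of -0.43, with 12.9% lower and 11.6% higher, and those in the fifth with the shortest spans a median of -0.10, with 2.46% lower and 10.5% higher. The 668 higher genes had a median span of 34.3 kb, with 24.8% of at least 100 kb, and those at least 16-fold higher a median of 15.6 kb, with 20.4%.

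Among 4 nuclear RNAs chosen after the spans were seen, 1 was lower and 1 higher by at least 2-fold: Kcnq1ot1 held 141 CPM beside 284, and Neat1, the RNA of nuclear paraspeckles, held 214 beside 67.5. Malat1 held 4490 CPM beside 7160 and Meg3 held 700 beside 1325, and neither was called.

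Olfactory and vomeronasal receptor genes summed to 519 CPM beside 90.3. Of 1549 such genes in the matrix, 9 reached 20 CPM in either group. The 8 of these that were higher had less than 20 CPM in the reference cells, so that the minimum level fixed their direction, and that count is not set against the 9.07% of all genes. A UMI of any such gene was present in 132 two-cell-like cells (82.5%) and in 40.8% of reference cells.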
